A study of Homo sapiens with 9 samples.

Results

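The antigen presentation genes described here are 10 named genes of the class I pathway, *B2M*, *TAP1*, *TAP2*, *TAPBP*, *PSMB8*, *PSMB9*, *NLRC5*, *ERAP1*, *HLA-E* and *HLA-F*. They were taken by symbol rather than by a threshold on a value, though with earlier results of these data known, and all 10 were found among the 18132 genes that have a probe set naming no other gene. They are covered by 48 of the 49293 probe sets tested, between 2 sets for *TAP1* and *NLRC5* and 10 for *HLA-F*. The cells were NCI-H1993, a single established line from a human lung adenocarcinoma. Transcripts were profiled on Affymetrix PrimeView arrays 72 h after transfection with a control siRNA (siControl) or with 1 of 2 siRNAs against *TDRD9*, an RNA helicase gene normally active in the germline (siTDRD9-1 and siTDRD9-2). Each group had 3 separately treated cultures with 1 array each, 9 arrays in all, and no other genotype or agent distinguished the groups.

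The class I pathway shows fragments of a cell's own proteins to CD8+ T cells and natural killer cells. The proteasome cuts proteins into peptides, the TAP1-TAP2 transporter carries the peptides into the endoplasmic reticulum, ERAP1 trims them, and tapasin, the product of *TAPBP*, helps to load them on a heavy chain paired with beta-2-microglobulin. Interferon-gamma is known to raise most of these genes together, through IRF and STAT factors and through NLRC5, and many tumours are known to lower them.

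*TAP2*, *PSMB8*, *TAP1* and *PSMB9* follow each other with no other coding gene between them in the class II region of chromosome 6, and *HLA-F*, *HLA-E* and *TAPBP* lie elsewhere on chromosome 6. *B2M* is on chromosome 15, *NLRC5* on chromosome 16 and *ERAP1* on chromosome 5. RefSeq promoter windows of build GRCh38.p14, 250 bases before to 50 after a start, were given for 8 of the 10 genes, in 11 windows. *HLA-E* and *NLRC5* had no entry. The core of the interferon-stimulated response element, GAAANNGAA, was read on both strands, and it occurred in a window of 7 of the 8 genes (*B2M*, *TAP1*, *TAP2*, *TAPBP*, *PSMB8*, *ERAP1* and *HLA-F*), or 7 of 11 windows, against 8.11% of all 35116 promoter windows. The gamma-activated site TTCNNNGAA was found for 2 genes, *TAP1* and *PSMB8* (7.66% of all windows), TGACG for 4 (24.6%) and CCAAT for 5 (34.6%). The last 2 are short motifs of the type found in the conserved module of class I promoters. Such matches describe the letters in a window and do not show that a factor bound there. The windows of *TAP1* and *PSMB9*, which are transcribed away from each other, shared 13 bases.

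These 4 windows are printed because they belong to the genes on which the results turn: *TAPBP* and *TAP2* had probe sets that changed, *PSMB9* had the largest difference that missed the threshold, and *B2M* had no set that passed. Capitals mark matches to the 4 motifs on either strand, and a run longer than 9 capitals holds overlapping matches of the interferon core.
TAPBP promoter, chr6:33314029-33314328, minus strand: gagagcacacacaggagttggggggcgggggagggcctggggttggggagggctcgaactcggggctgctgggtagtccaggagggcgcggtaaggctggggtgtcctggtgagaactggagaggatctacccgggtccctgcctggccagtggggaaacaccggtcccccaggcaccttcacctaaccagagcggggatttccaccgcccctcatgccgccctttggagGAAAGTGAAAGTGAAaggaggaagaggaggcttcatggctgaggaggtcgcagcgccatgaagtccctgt
TAP2 promoter, chr6:32838690-32838989, minus strand: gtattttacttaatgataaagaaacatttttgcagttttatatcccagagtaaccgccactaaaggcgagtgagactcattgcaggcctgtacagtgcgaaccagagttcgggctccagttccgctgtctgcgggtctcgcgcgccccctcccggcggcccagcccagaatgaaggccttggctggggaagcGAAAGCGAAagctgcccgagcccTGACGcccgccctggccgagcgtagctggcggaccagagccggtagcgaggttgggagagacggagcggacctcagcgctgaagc
PSMB9 promoter, chr6:32853942-32854241, plus strand: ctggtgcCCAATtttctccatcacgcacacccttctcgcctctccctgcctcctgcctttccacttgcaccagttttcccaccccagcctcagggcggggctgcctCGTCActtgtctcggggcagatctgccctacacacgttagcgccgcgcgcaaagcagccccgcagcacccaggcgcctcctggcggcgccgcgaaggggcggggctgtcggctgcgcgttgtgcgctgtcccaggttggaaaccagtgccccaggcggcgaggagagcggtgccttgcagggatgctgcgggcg
B2M promoter, chr15:44711267-44711566, plus strand: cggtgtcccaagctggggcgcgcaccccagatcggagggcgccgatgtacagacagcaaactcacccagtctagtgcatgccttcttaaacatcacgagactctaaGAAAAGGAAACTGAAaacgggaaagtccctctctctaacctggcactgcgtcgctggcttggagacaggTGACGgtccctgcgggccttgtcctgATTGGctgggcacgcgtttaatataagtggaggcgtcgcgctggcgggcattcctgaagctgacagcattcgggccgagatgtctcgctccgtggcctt
In *TAPBP* and in *B2M* a pair of interferon cores overlapped, beginning at positions -20 and -14 from the start in *TAPBP* and at -144 and -138 in *B2M*. *TAP2* held 1 core, and the *PSMB9* window held none of them.

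The epithelial identity of the cultures was clear in the markers for keratins and cell adhesion: *EPCAM*, *KRT8*, *KRT18* and *KRT19* lay at mean log2 signals of 12.3, 13.2, 13.3 and 13.3, while the lung lineage genes *NKX2-1*, *NAPSA* and *SFTPB* lay at 6.18, 6.54 and 5.20. Of the 9 leukocyte markers measured, *PTPRC*, which marks leukocytes in general, lay at 3.58, the T cell markers *CD3E* and *CD8A* at 4.80 and 4.01, the B cell marker *MS4A1* at 3.10, *NKG7* at 4.99 and *LYZ* at 2.82, whereas the myeloid markers *CD68*, *CD14* and *ITGAX* lay at 9.004, 7.12 and 6.95. The list mean per array was 5.12 to 5.23 under siControl, 5.21 to 5.30 under siTDRD9-1 and 4.91 to 5.09 under siTDRD9-2. At the brightest sets, the only marker past the threshold among these, 6 stromal and 9 epithelial genes was *CD68*, a lysosomal glycoprotein gene, which fell by 0.84 with siTDRD9-2 (adjusted p = 0.00115) and was lower than with siTDRD9-1. At other sets, 3 of *KRT8* rose with siTDRD9-2 by 0.56 to 0.58 and 1 of *COL1A1* rose with siTDRD9-1 by 0.51. Their part in the results was not tested. *TDRD9* itself was at 22.1% of its siControl level with siTDRD9-1 and at 61.7% with siTDRD9-2. The siControl arrays also stood apart in control probe sets: the 24 poly-A spike-in sets averaged 8.35 ± 0.128 (SD, n = 3) under siControl, 7.60 ± 0.191 under siTDRD9-1 and 7.66 ± 0.101 under siTDRD9-2 (exact two-sided permutation test of the 6 knockdown arrays against 3, p = 0.0119, the smallest the design allows). The 3′ sets of the spike-ins exceeded the 5′ sets by 1.44 under siControl, 1.09 under siTDRD9-1 and 1.05 under siTDRD9-2, and the 3′ set of 18S ribosomal RNA, which comes from the cells, was at 11.9 against 13.4 and 13.4 (exact p = 0.0119 for each). What set these arrays apart is not given in the sources used here. A difference from siControl that both siRNAs show, that of *HLA-E* included, cannot be told apart from it. The siControl values do not enter the difference between siTDRD9-2 and siTDRD9-1 (spike-ins, exact p = 0.8). With 3 arrays against 3 the smallest such p is 0.1. The median log2 signal over all sets tested reached it, at 5.785 to 5.803 per array with siTDRD9-1 and 5.758 to 5.780 with siTDRD9-2. The SE and adjusted p of the difference between the siRNAs still rest on a spread estimated from all 9 arrays, siControl included. In bulk RNA, fewer cells with a transcript and less transcript per cell cannot be told apart.

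**Figure D1:**
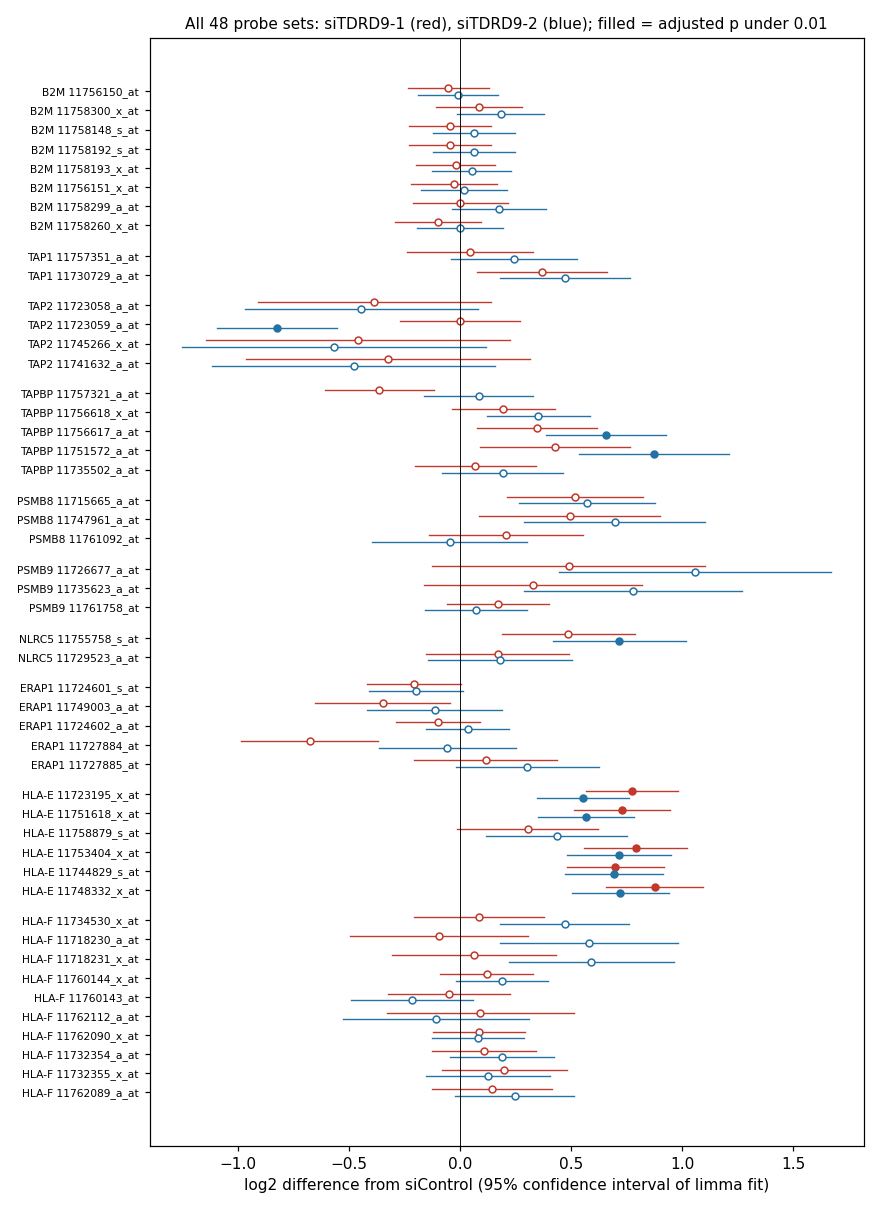
Log2 difference from siControl of all 48 probe sets of the 10 genes (x axis, points with 95% confidence intervals; red, siTDRD9-1; blue, siTDRD9-2). Filled points passed an adjusted p of 0.01: 5 *HLA-E* sets with siTDRD9-1, and with siTDRD9-2 5 *HLA-E*, 2 *TAPBP* and 1 *NLRC5* set to the right of 0 and 1 *TAP2* set to the left.

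*HLA-E* rose with siTDRD9-1, by 1.62 to 1.83-fold at 5 of its 6 probe sets, and no other of the 10 genes passed there. With siTDRD9-2, *HLA-E*, *NLRC5* and part of the *TAPBP* probe sets rose and 1 *TAP2* probe set fell. *B2M* differed from siControl by -0.05 and -0.01 on the log2 scale at its brightest probe set. A probe set passed when its adjusted p (limma, Benjamini-Hochberg over all 49293 sets) was under 0.01. With siTDRD9-1, 5 of 48 sets passed upward, or 10.4% against a background of 2.41% over all probe sets, and 0 passed downward, against 2.12%. At an unadjusted p under 0.05 there were 11 upward and 3 downward. The share of all sets at that level was not computed, so these counts were not set against a background. With siTDRD9-2, 8 of 48 passed upward, or 16.7% against 2.95%, and 1 downward, or 2.08% against 2.23%, a share near the background. The probe sets of a gene share its transcripts, and in both comparisons 5 of the sets that passed upward belonged to *HLA-E* alone. No change that passed reached 2-fold in any comparison, where 0.714% of all sets did so with siTDRD9-1, 0.809% with siTDRD9-2 and 0.306% between the siRNAs. Between siTDRD9-2 and siTDRD9-1, 0 sets passed upward (background 0.921%) and 1 downward (2.08% against 1.03%). There 7 sets were higher and 2 lower at an unadjusted p under 0.05, again without a share over all sets. The 8 sets became 3 without siControl replicate 2 or 3, 5 without siTDRD9-2 replicate 1 and 4 without siTDRD9-2 replicate 2. The 1 set between the siRNAs became 0 without siTDRD9-1 replicate 1 or 2 or without any 1 siTDRD9-2 array. The share of all sets that passed was not computed for these fits.

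Over all 48 sets the median log2 difference from siControl was 0.089 with siTDRD9-1 and 0.18 with siTDRD9-2, against 0.0016 and -0.019 over all probe sets. Counted once per gene at the brightest probe set, that is the one of highest mean signal, the median of the 10 genes was 0.065 and 0.36, against -0.026 and -0.056 over all genes. These 2 comparisons share the siControl arrays. At the brightest sets, 1 gene passed with siTDRD9-1 (*HLA-E*) and 2 with siTDRD9-2 (*HLA-E* and *NLRC5*), where 4.05% and 4.35% of all 18132 genes did. Between the siRNAs 0 of the 10 did, against 2.38%.

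**Figure D2:**
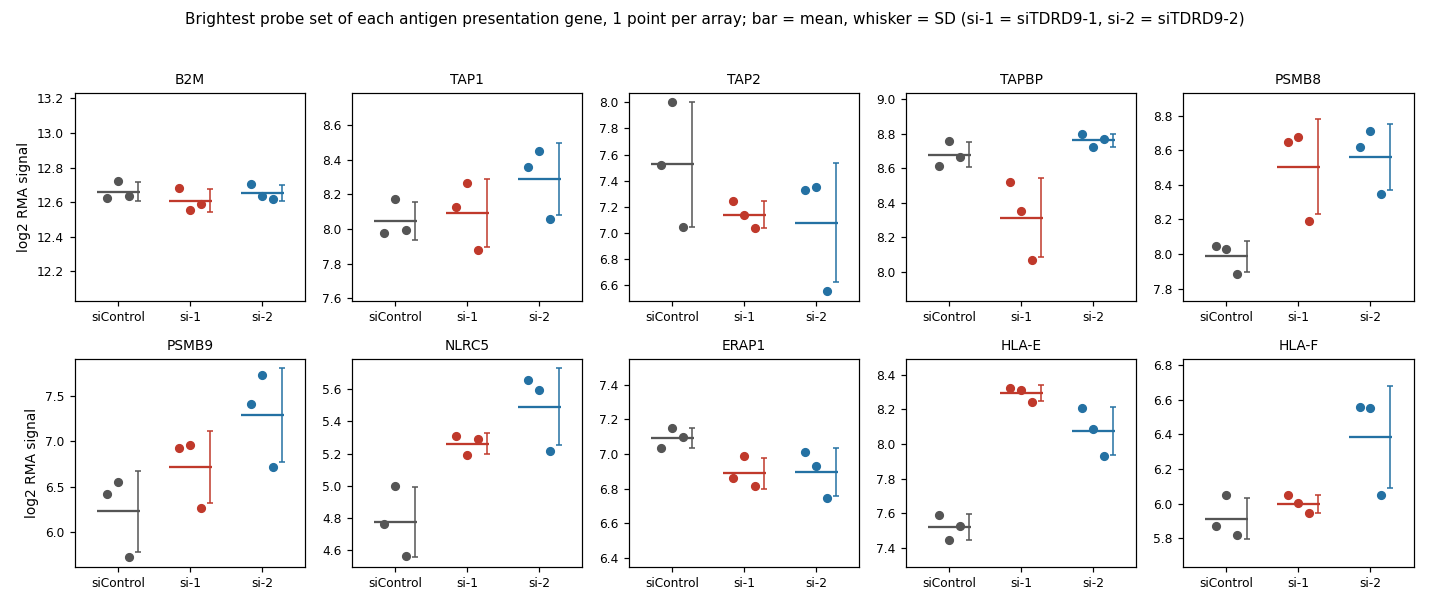
Log2 signal of the brightest probe set of each gene on each of the 9 arrays (points), with the mean (bar) and SD (whisker) of the 3 arrays of a group. The groups separate fully for *HLA-E* and coincide for *B2M*, and the replicate 3 arrays lie low for *PSMB9* in every group.

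*HLA-E* encodes a non-classical heavy chain that presents leader peptides of other class I molecules to the NKG2A and NKG2C receptors of natural killer cells. At its brightest probe set, 11723195_x_at, the 3 siControl arrays read 7.59, 7.44 and 7.53 (log2 signal). The siTDRD9-1 arrays read 8.33, 8.31 and 8.24, and the siTDRD9-2 arrays 8.21, 8.08 and 7.93. All 6 knockdown arrays lay above all 3 siControl arrays, and the siTDRD9-1 arrays above the siTDRD9-2 arrays. The difference from siControl was 0.77 (SE 0.0946, 1.71-fold, adjusted p = 0.000547) with siTDRD9-1 and 0.55 (SE 0.0946, 1.47-fold, adjusted p = 0.00323) with siTDRD9-2. Between the siRNAs it was -0.22 (95% interval -0.43 to -0.01, adjusted p = 0.218), which did not pass.

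The other *HLA-E* sets behaved alike, with 1 exception. Set 11748332_x_at read 5.77, 5.46 and 5.58 under siControl, 6.58, 6.45 and 6.40 under siTDRD9-1 and 6.29, 6.37 and 6.30 under siTDRD9-2. It had the largest *HLA-E* differences, 0.88 (1.83-fold, adjusted p = 0.000355) and 0.72 (1.65-fold, adjusted p = 0.000964). Set 11753404_x_at read 6.31, 6.01 and 6.15 under siControl against 7.08, 6.96 and 6.80 and against 6.81, 6.94 and 6.86, a rise of 0.79 and of 0.72. In both sets the knockdown arrays cleared the siControl arrays by more than the spread within any group. Set 11744829_s_at read 5.92, 5.95 and 6.02 under siControl, 6.67, 6.81 and 6.51 under siTDRD9-1 and 6.78, 6.60 and 6.58 under siTDRD9-2, so that both siRNAs gave nearly the same rise, 0.70 and 0.69. Set 11751618_x_at read 7.42, 7.19 and 7.34, then 8.09, 8.13 and 7.92, then 7.96, 7.88 and 7.81, a rise of 0.73 and of 0.57. The exception, 11758879_s_at, read 6.66, 6.51 and 6.71 under siControl, 7.14, 7.07 and 6.58 under siTDRD9-1 and 7.18, 7.12 and 6.88 under siTDRD9-2. Its siTDRD9-1 arrays overlapped the siControl arrays at replicate 3, and its differences of 0.31 (adjusted p = 0.233) and 0.44 (adjusted p = 0.0755) did not pass.

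All 6 *HLA-E* sets carry a suffix for probes that may match other sequences: 4 end in x_at and 2 in s_at. The class I heavy chains are close relatives, and how much of this signal comes from their transcripts was not tested. Of the sets that name a single other class I gene, none of 3 for *HLA-B* and none of 6 for *HLA-G* passed in any comparison, with differences from siControl of -0.03 to 0.28 for *HLA-B* and -0.18 to 0.11 for *HLA-G*. Among the 3 sets of *HLA-C*, a classical heavy chain, 1 rose with siTDRD9-1, by 0.92 (SE 0.138, adjusted p = 0.00182), and the same set differed by 0.27 with siTDRD9-2 (adjusted p = 0.262). When any 1 array was left out, the 5 *HLA-E* sets passed with siTDRD9-1 each time. With siTDRD9-2, 11723195_x_at missed the threshold without siControl replicate 2 (adjusted p = 0.0215), siControl replicate 3 (0.0149), siTDRD9-2 replicate 1 (0.0139) or siTDRD9-2 replicate 2 (0.0165), 11751618_x_at without the same arrays (0.0221, 0.0147, 0.0151 and 0.0161), and 11753404_x_at without siControl replicate 2 (0.0101).

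**Figure D3:**
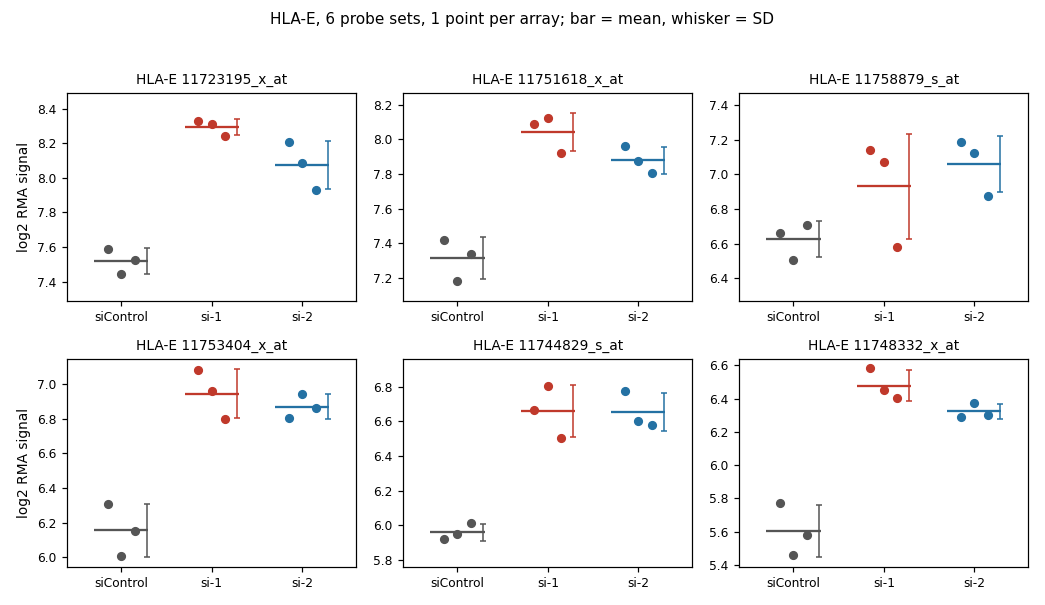
Log2 signal of the 6 *HLA-E* probe sets on each of the 9 arrays (points), with group mean (bar) and SD (whisker, n = 3). In 5 panels every knockdown array lies above every siControl array. In 11758879_s_at, 1 siTDRD9-1 array (6.58) lies among the siControl arrays.

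*HLA-F*, a second non-classical heavy chain, was measured by 10 sets, of which 7 had a mean under 5 on the log2 scale, close to the dim end. None passed. At the brightest, 11734530_x_at, the siControl arrays read 5.87, 6.05 and 5.82, the siTDRD9-1 arrays 6.05, 6.001 and 5.95, and the siTDRD9-2 arrays 6.56, 6.55 and 6.05. With siTDRD9-2 replicates 1 and 2 stood above all other arrays and replicate 3 did not. The difference was 0.09 (adjusted p = 0.78) with siTDRD9-1 and 0.47 (95% interval 0.18 to 0.76, adjusted p = 0.0391) with siTDRD9-2. The 2 next brightest sets gave 0.58 (adjusted p = 0.0613) and 0.59 (adjusted p = 0.0417) under siTDRD9-2, and -0.09 and 0.06 under siTDRD9-1. The 7 dim sets gave -0.05 to 0.20 under siTDRD9-1 and -0.22 to 0.24 under siTDRD9-2.

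*B2M* encodes beta-2-microglobulin, the invariant light chain that class I heavy chains pair with on the cell surface. Its brightest set, 11756150_at, read 12.63, 12.72 and 12.64 under siControl, 12.68, 12.55 and 12.59 under siTDRD9-1 and 12.70, 12.64 and 12.62 under siTDRD9-2. The 3 groups overlapped entirely. The differences were -0.05 (95% interval -0.24 to 0.13) and -0.01 (95% interval -0.19 to 0.17). Over its 8 sets, of which 1 pair held identical values, they ran from -0.10 to 0.08 with siTDRD9-1 and from -0.01 to 0.18 with siTDRD9-2, and no set passed. The intervals of all 8 lay between -0.29 and 0.28 and between -0.19 and 0.39.

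*PSMB8* and *PSMB9* encode catalytic subunits that replace constitutive ones in the immunoproteasome. The brightest *PSMB8* set, 11715665_a_at, read 8.05, 8.03 and 7.89 under siControl, 8.65, 8.68 and 8.19 under siTDRD9-1 and 8.62, 8.71 and 8.35 under siTDRD9-2. The siRNA arrays lay above the siControl arrays throughout, but the differences of 0.52 (SE 0.140, adjusted p = 0.0367) and 0.57 (adjusted p = 0.0211) did not pass. With a term for replicate number in the fit, the difference with siTDRD9-2 passed (adjusted p = 0.00568). A second set gave 0.49 (adjusted p = 0.126) and 0.69 (adjusted p = 0.0313), and a dim further set 0.21 and -0.05.

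For *PSMB9*, set 11726677_a_at read 6.42, 6.55 and 5.72 under siControl, 6.93, 6.96 and 6.26 under siTDRD9-1 and 7.41, 7.73 and 6.72 under siTDRD9-2. Replicate 3 was the lowest of each group by more than 0.5, so that siTDRD9-1 overlapped siControl while siTDRD9-2 lay wholly above it. The difference of 1.06 with siTDRD9-2 was the largest of the 48 sets in size, but it did not pass (SE 0.280, 2.08-fold, adjusted p = 0.0298). With siTDRD9-1 it was 0.49 (adjusted p = 0.338), and between the siRNAs 0.57 (95% interval -0.04 to 1.18, adjusted p = 0.281). With a term for replicate number in the fit, the difference of siTDRD9-2 from siControl passed (adjusted p = 0.000228), as did that between the siRNAs (0.00947). The second set, 11735623_a_at, gave 0.33 (adjusted p = 0.438) and 0.78 (adjusted p = 0.0423), again with replicate 3 lowest in each group. The dim last set gave 0.17 and 0.07.

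*TAP1* and *TAP2* encode the subunits of the peptide transporter. The brightest *TAP1* set, 11757351_a_at, read 7.97, 8.17 and 7.99 under siControl, 8.13, 8.27 and 7.88 under siTDRD9-1 and 8.36, 8.45 and 8.06 under siTDRD9-2, with overlap in both comparisons. Its differences were 0.04 (adjusted p = 0.895) and 0.24 (95% interval -0.04 to 0.52, adjusted p = 0.275). Its other set gave 0.37 (adjusted p = 0.11) and 0.47 (adjusted p = 0.0404). No *TAP1* set passed.

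*TAP2* was the only one of the 10 genes with a set that passed downward in the main fit. The *ERAP1* set 11727884_at, lower with siTDRD9-1, missed the threshold at an adjusted p of 0.0106. Set 11723059_a_at read 6.92, 7.09 and 7.28 under siControl, 7.03, 7.34 and 6.92 under siTDRD9-1 and 6.29, 6.25 and 6.27 under siTDRD9-2. The siTDRD9-2 arrays lay together below all the others, and the siControl and siTDRD9-1 arrays overlapped. The difference was -0.82 (SE 0.123, 1.77-fold lower, adjusted p = 0.00151) with siTDRD9-2 and 0.0001 (95% interval -0.27 to 0.27) with siTDRD9-1. The siRNAs differed from each other by -0.82 (SE 0.123, adjusted p = 0.00308), the only set of the 48 that passed in that comparison. The fall against siControl passed with any 1 array left out (adjusted p up to 0.00903). The difference between the siRNAs missed the threshold without siTDRD9-1 replicate 1 (adjusted p = 0.0144) or 2 (0.0104), and without siTDRD9-2 replicate 1 (0.0135), 2 (0.0156) or 3 (0.0102), and in the fit of 2 groups (0.0122).

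The other *TAP2* sets did not separate the siRNAs. The brightest, 11723058_a_at, read 7.52, 8.0004 and 7.05 under siControl, 7.24, 7.13 and 7.04 under siTDRD9-1 and 7.33, 7.35 and 6.55 under siTDRD9-2, with overlap throughout. Its differences were -0.39 (adjusted p = 0.382) and -0.45 (adjusted p = 0.279), and -0.06 (95% interval -0.58 to 0.47) between the siRNAs. Sets 11745266_x_at and 11741632_a_at gave -0.46 and -0.33 under siTDRD9-1 and -0.57 and -0.48 under siTDRD9-2. In these 3 sets siControl replicate 3 was the lowest of its group, and the siControl SD of 0.476, 0.752 and 0.727 was above the 0.18 of 11723059_a_at.

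*TAPBP* encodes tapasin, which bridges the transporter and the heavy chain. Its 5 sets did not move alike. Set 11751572_a_at read 5.56, 5.59 and 5.41 under siControl, 6.01, 5.93 and 5.90 under siTDRD9-1 and 6.13, 6.23 and 6.82 under siTDRD9-2, so the 3 groups did not overlap. It rose by 0.87 with siTDRD9-2 (SE 0.154, 1.83-fold, adjusted p = 0.00389), and with siTDRD9-1 the difference was 0.43 (adjusted p = 0.109). Set 11756617_a_at read 7.07, 6.77 and 6.74, then 7.25, 7.03 and 7.35, then 7.37, 7.53 and 7.66, in the same order of groups. Here siTDRD9-1 overlapped siControl and siTDRD9-2 did not, and the differences were 0.35 (adjusted p = 0.105) and 0.66 (SE 0.124, adjusted p = 0.00571).

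The brightest *TAPBP* set, 11757321_a_at, read 8.61, 8.76 and 8.66 under siControl, 8.52, 8.35 and 8.07 under siTDRD9-1 and 8.80, 8.72 and 8.77 under siTDRD9-2. In it the siTDRD9-1 arrays were below all others, by -0.36 from siControl (adjusted p = 0.0621), and siTDRD9-2 differed by 0.08 (adjusted p = 0.706). The siRNAs differed by 0.45 (adjusted p = 0.0385). None of these passed. The last 2 sets gave 0.19 and 0.07 under siTDRD9-1, and 0.35 (adjusted p = 0.0496) and 0.19 under siTDRD9-2. The rise of 11751572_a_at missed the threshold without siControl replicate 1 (adjusted p = 0.0134), 2 (0.0159) or 3 (0.0227), and that of 11756617_a_at without siControl replicate 2 (0.033) or 3 (0.0314), siTDRD9-1 replicate 1 (0.0116), or siTDRD9-2 replicate 2 (0.0243) or 3 (0.0208). In the fit of 2 groups both missed it (0.0151 and 0.0111).

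**Figure D4:**
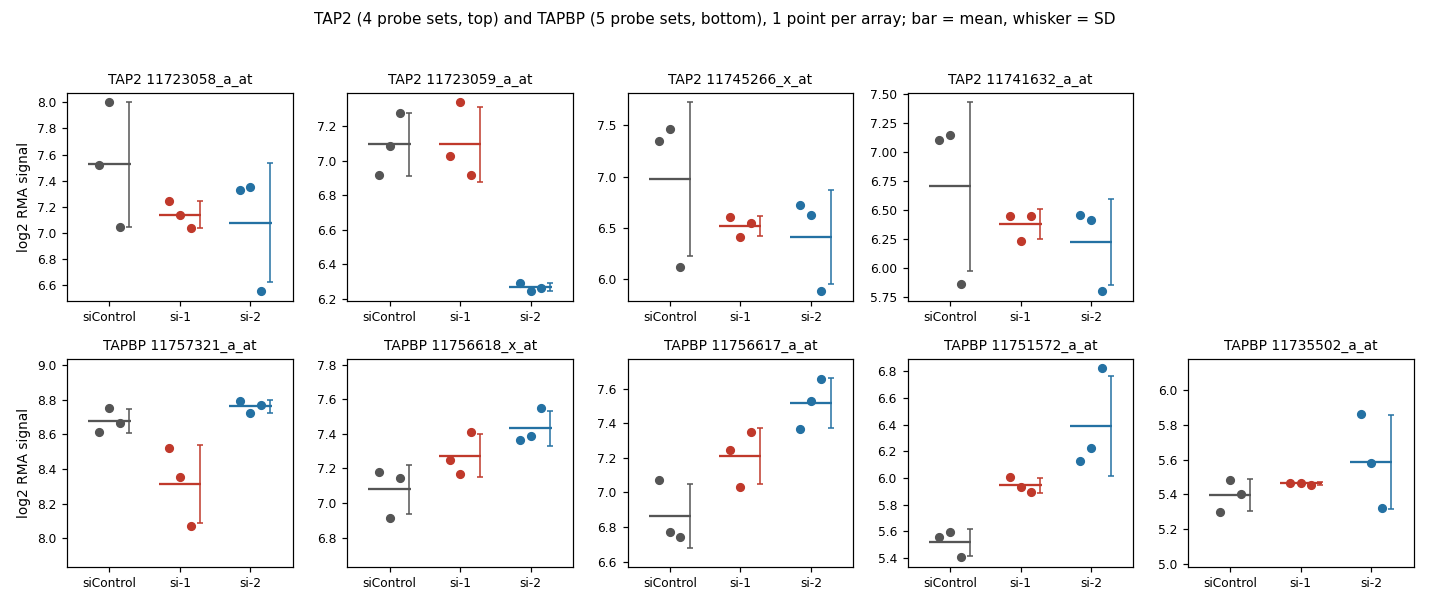
Log2 signal of the 4 *TAP2* sets (top) and the 5 *TAPBP* sets (bottom) on each of the 9 arrays (points), with group mean (bar) and SD (whisker, n = 3). The siTDRD9-2 arrays of *TAP2* 11723059_a_at lie at 6.25 to 6.29, below the other 6, and the siTDRD9-1 mean of *TAPBP* lies below siControl in 1 set and above it in 4.

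*ERAP1* encodes the aminopeptidase that trims peptides in the endoplasmic reticulum. Its brightest set, 11724601_s_at, read 7.04, 7.15 and 7.10 under siControl, 6.86, 6.99 and 6.82 under siTDRD9-1 and 7.01, 6.93 and 6.75 under siTDRD9-2. Both siRNAs lay slightly below siControl, by -0.21 and -0.20 (adjusted p = 0.226 for each), which did not pass. Set 11727884_at read 5.45, 5.56 and 5.86, then 4.97, 5.20 and 4.66, then 5.599, 5.58 and 5.51. Only siTDRD9-1 was apart there, at -0.68 from siControl (SE 0.141, adjusted p = 0.0106) and 0.62 below siTDRD9-2 (adjusted p = 0.0255), and the former was the value nearest the threshold among the sets that did not pass. The remaining sets gave -0.35 (adjusted p = 0.147, all siTDRD9-1 arrays below siControl), -0.10 and 0.12 under siTDRD9-1, and -0.11, 0.03 and 0.30 under siTDRD9-2.

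*NLRC5* encodes the transactivator that acts on class I promoters. Its brightest set, 11755758_s_at, read 4.76, 4.9999 and 4.56 under siControl, 5.31, 5.19 and 5.29 under siTDRD9-1 and 5.66, 5.596 and 5.22 under siTDRD9-2. Every knockdown array was above every siControl array. The siControl arrays all lay under 5, close to the dim end, and the suffix s_at marks probes that may match other sequences. It rose by 0.72 with siTDRD9-2 (SE 0.136, 1.64-fold, adjusted p = 0.00587), and differed by 0.49 with siTDRD9-1 (1.40-fold, adjusted p = 0.0414), which did not pass. The siRNAs themselves differed by 0.23 (95% interval -0.07 to 0.53, adjusted p = 0.378). The other set, at a mean of 3.15, gave 0.17 and 0.18. The rise missed the threshold without siControl replicate 1 (adjusted p = 0.0205) or 3 (0.0306), siTDRD9-1 replicate 1 (0.0118), or siTDRD9-2 replicate 1 (0.0229) or 2 (0.0297), as well as in the fit of 2 groups (0.0185) and for the mean of the 2 sets (0.0163).

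The other genes of the pathway, 69 measured of 72 listed in 9 lists, were counted at their brightest sets, and their other sets are given beside. Of the 69, 5 passed with siTDRD9-1 (4.05% of all genes did), 4 with siTDRD9-2 (4.35%) and 2 between the siRNAs (2.38%). In the list of the remaining immunoproteasome and activator genes, 0 of 5 passed with siTDRD9-1 and *PSME1*, a subunit of the PA28 activator, rose with siTDRD9-2, by 0.50 (adjusted p = 0.00636) and at a further set by 0.63 (adjusted p = 0.00119). *POMP*, the chaperone of proteasome assembly, differed by -0.07 with siTDRD9-1 at its brightest set (adjusted p = 0.673), but its set 11718762_s_at fell by 1.47 (adjusted p = 5.68e-05) and was 1.03 higher with siTDRD9-2 than with siTDRD9-1 (adjusted p = 0.00075). None of the 3 constitutive catalytic subunits that PSMB8, PSMB9 and their partner replace passed at any of 11 sets, with differences of -0.20 to 0.04 at the brightest. Over all sets, 2.41% passed upward and 2.12% downward with siTDRD9-1, and 2.95% and 2.23% with siTDRD9-2.

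Of 6 other trimming peptidases, *TPP2* rose with siTDRD9-1 (0.60, adjusted p = 0.00321), *BLMH* fell with siTDRD9-1 (-0.46, adjusted p = 0.00747), and *ERAP2*, the partner of ERAP1, rose with siTDRD9-1 at 1 set that was not the brightest (0.72, adjusted p = 0.0092). The sets of *NPEPPS* were opposed: the brightest rose with both siRNAs (0.42 and 0.44, adjusted p = 0.00608 and 0.00461), while the other 2 were lower with both, by -0.33 and -0.32 and by -0.40 and -0.39, and did not pass. None of 6 loading factors and chaperones passed at its brightest set. At other sets, with siTDRD9-2, *HSPA5* rose at 2 (0.73 and 0.72), *CANX*, which encodes calnexin, at 1 (0.62) and *UGGT1* at 1 (0.73), and with siTDRD9-1 *UGGT1* passed at 2 sets in opposite directions (0.54 and -0.46).

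Of 12 other class I heavy chain and related genes, *HLA-C* rose with siTDRD9-1 as described, and *MR1* rose with it at 1 set that was not the brightest (0.60, adjusted p = 0.00462). *MICB*, a stress ligand of the NKG2D receptor, fell with siTDRD9-2 at its brightest set (-1.05, SE 0.168, adjusted p = 0.00225). There it was also lower than with siTDRD9-1 (-0.92, adjusted p = 0.00919). No other *MICB* set passed. None of 12 transcription regulators passed at the brightest set. At other sets *CREB1* rose with siTDRD9-2 (0.67, adjusted p = 0.00325) and *IRF1* with both at 1 set. Another *IRF1* set was lower with siTDRD9-2 (-0.18) and did not pass. The *CREB1* sets were opposed: with siTDRD9-2 they ran from -0.22 to 0.67, and those that were lower did not pass.

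In the interferon-gamma receptor list of 5, *IFNGR1*, the ligand-binding chain, rose with both siRNAs at the brightest set (0.55 and 0.67, adjusted p = 0.00381 and 0.00115) and at a further one (1.07 and 1.11). *JAK1*, its kinase, did not pass against siControl at its brightest set (-0.34 and 0.31, adjusted p = 0.0877 and 0.114), where it was higher with siTDRD9-2 than with siTDRD9-1 (0.64, adjusted p = 0.00798). Its set 11717686_a_at rose with both (0.82 and 1.38, adjusted p = 0.000836 and 3.87e-05), and 11717687_a_at rose with siTDRD9-2 (0.75, adjusted p = 0.000927) and differed by 0.04 with siTDRD9-1. None of 6 repressors and turnover factors passed at the brightest set, while at other sets *TMEM127* rose with siTDRD9-2 (1.002, adjusted p = 0.00187) and *EZH2* with siTDRD9-1 (0.73, adjusted p = 0.0049). The other *TMEM127* sets, all brighter, differed by 0.19, 0.10 and 0.12 with siTDRD9-2 and did not pass. The other *EZH2* sets differed by -0.18 and -0.27 with siTDRD9-1 and did not pass. Of the 14 class II genes, which serve presentation to CD4+ T cells, none passed at any of 62 sets. Over all sets, 2.41% passed upward and 2.12% downward with siTDRD9-1, and 2.95% and 2.23% with siTDRD9-2. The class II count was not tested against these shares. The list medians from siControl lay between -0.13 and 0.19 with siTDRD9-1 and between -0.15 and 0.11 with siTDRD9-2, against -0.026 and -0.056 over all genes.

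**Figure D5:**
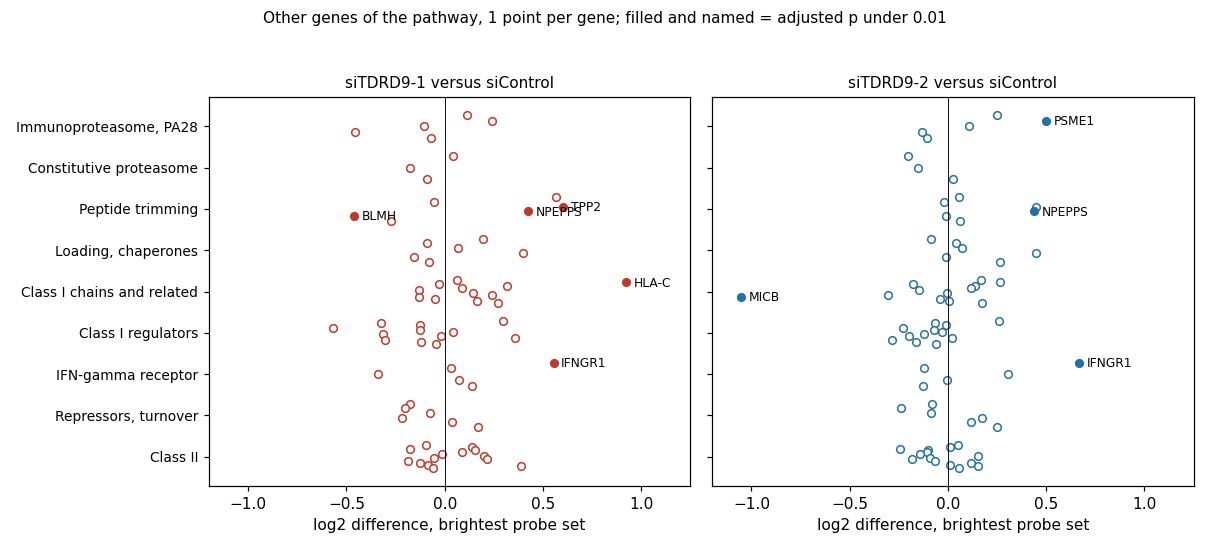
Log2 difference from siControl at the brightest probe set of the other genes of the pathway (1 point per gene), by list, for siTDRD9-1 (left) and siTDRD9-2 (right). Filled, named points passed an adjusted p of 0.01: 5 genes with siTDRD9-1 and 4 with siTDRD9-2, of 69 (4.05% and 4.35% of all genes passed).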

How the data were processed

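Each of 9 NCI-H1993 cultures, 3 per siRNA, was hybridized to 1 PrimeView array. The deposited log2 values were made by the authors with RMA in Affymetrix Expression Console (versions not given), which corrects the background, gives all arrays the same distribution and summarizes each probe set. They were used as deposited. Array signals carry no read depth, and the precision is limited by the 3 arrays per group. The label fields on RNA extraction name another cell line, and the sample labels were followed.

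Values were computed with R 4.3.3 and limma 3.58.1. The 102 control sets were left out of the 49293 tested, and 44988 of these name a single gene. One limma model with 3 groups and empirical Bayes moderation gave the differences, moderated standard errors and intervals, and p was adjusted by the Benjamini-Hochberg method over all 49293 sets. A set passed at an adjusted p under 0.01. The script was tested on simulated data. Differences, or their range, are given for every set of the 10 genes, with values per array at the brightest set and at those that passed, and of the other lists up to 4 genes that passed at the brightest set. *ERAP1* 11727884_at, the second *HLA-E* s_at set and the sequences shown were chosen after their values were seen, as were *HLA-B*, *HLA-G* and the sets of other list genes that were not the brightest. The genes and lists were chosen with earlier results of these data known. The alternatives left out each array in turn, fitted only the 2 groups compared, blocked on replicate number, weighted the arrays, let the variance depend on the signal, rescaled by the median or by cyclic loess, dropped dim sets, moved the threshold or averaged the sets of a gene. Genes of the lists without a single-gene set were not analysed here.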

Additional observations from a re-analysis of the deposited data

Results flagged for a closer look

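The response of *TAP2* 11723059_a_at differed between the siRNAs: siTDRD9-2 was -0.82 (log2) below siTDRD9-1 by a direct limma contrast (adjusted p = 0.00308), while the other 3 *TAP2* sets differed by -0.15 to -0.06 with no test passed. All 3 siTDRD9-2 arrays were below all 3 siTDRD9-1 arrays. The difference missed the threshold in the fit of 2 groups (adjusted p = 0.0122). It also missed it without siTDRD9-1 replicate 1 or 2 or without any 1 siTDRD9-2 array.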

How the results depend on the processing

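No difference that passed changed sign under any alternative. Median centring, cyclic loess and the filter on dim sets kept all 5 sets that passed with siTDRD9-1, all 9 with siTDRD9-2 and the 1 between the siRNAs. The dim filter asked for a mean of at least 5 over the 9 arrays. *NLRC5* 11755758_s_at met it at 5.18, with group means of 4.77 under siControl, 5.26 under siTDRD9-1 and 5.49 under siTDRD9-2. That set stayed in only through the knockdown arrays, so the filter adds nothing to its rise. Upward counts with siTDRD9-1 (5) became 12 with array weights, 0 at 2-fold and 1 gene with the mean of each gene's sets, and 5 to 6 with 1 array left out. Downward counts with siTDRD9-1 (0) became 1, *ERAP1* 11727884_at, with the variance trend, array weights, median centring, the dim filter or an adjusted p under 0.05, and 0 to 1 with 1 array left out. Upward counts with siTDRD9-2 (8) became 5 in the fit of 2 groups, 13 with the replicate block, 17 with array weights, 16 at 0.05, 0 at 2-fold and 2 genes with gene means, and 3 to 10 with 1 array left out: 3 without siControl replicate 2 or 3, 5 without siTDRD9-2 replicate 1 and 4 without siTDRD9-2 replicate 2. The downward count (1) became 0 at 2-fold and with gene means, and stayed 1 to 1 with 1 array left out. Between the siRNAs the upward count (0) became 1 with the replicate block, 5 with array weights and 2 at 0.05, and stayed 0 to 0 with 1 array left out. The downward count (1) became 0 in the fit of 2 groups, at 2-fold and with gene means, and 0 to 1 with 1 array left out. The 2-fold counts hold fewer sets by construction, and for the other settings the cause was not tested. Except at 2-fold, the share of all sets that passed was not computed for these settings. A higher or lower count here was therefore not set against a background. Over all sets the replicate numbers showed no pairing: deviations of arrays with the same number correlated at -0.15 to 0.15, others at -0.26 to 0.17. Of 9 arrays, 2 correlated best with their own number. Such correlations cannot exclude a pairing that acts on some genes. At the brightest *PSMB8* and *PSMB9* sets replicate 3 was the lowest of each group. The methods describe 3 transfection experiments, but no label ties a number to one. With the block, all 9 sets that passed with siTDRD9-2 still passed, and the brightest sets of *PSMB8* (adjusted p = 0.00568) and *PSMB9* (0.000228, and 0.00947 between the siRNAs, SE 0.0975) passed too, as did a further set of each and 1 of *HLA-F*. Signals under 5 on the log2 scale, 11 of the 48 sets, are close to the dim end and limit what *HLA-F* can show. The siControl arrays of *NLRC5* 11755758_s_at also lay under 5, which limits what its rise can show.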

Other observations

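*IRF1*, an interferon-induced activator of class I genes that was chosen here after its values were seen, has 4 probe sets. Set 11754035_a_at rose with siTDRD9-1 (0.63, adjusted p = 0.00824) and with siTDRD9-2 (0.68, adjusted p = 0.00461), while the brightest set differed by 0.30 (adjusted p = 0.205) and 0.26 (adjusted p = 0.255) and did not pass. Set 11716734_at went in opposite directions, by 0.16 (adjusted p = 0.435) and -0.18 (adjusted p = 0.332), and did not pass. In it all siTDRD9-2 arrays lay below all siControl arrays. The dim set 11761782_at differed by 0.33 with siTDRD9-1 (adjusted p = 0.111).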
